A study of Mus musculus with 12 samples.

Results

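The genes described are 10 of the transforming growth factor beta (TGF-beta) pathway: the ligands Tgfb1, Tgfb2 and Tgfb3, the receptors Tgfbr1, Tgfbr2 and Tgfbr3, the signal carriers and regulators Smad3, Smad7 and Ski, and the target Tgfbi. They were picked by symbol, with earlier results of these data known, and are 10 of 30101 gene names on the array. Their symbols matched 16 of 39405 probes, and each gene was represented by its brightest probe. Of the 10 genes, 9 were well above background throughout at least 1 group (all 3 of its arrays) and were tested among 18630 genes. Tgfb2 was not.

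RNA of CD4+ T cells was hybridised to 12 single-colour arrays in 4 groups of 3, with replicates from 3 independent experiments. The naive group held splenic CD4+ T cells of B6.2d2 mice, which carry a transgenic T cell receptor for myelin oligodendrocyte glycoprotein (MOG). The culture group held B6.2d2 cells differentiated to Th17 cells in vitro, with culture agents not stated in the labels. For the transfer group, such Th17 cells were given to lymphopenic Rag1-/- mice, which make no mature lymphocytes but keep their myeloid cells. At peak disease, CD4+ cells were isolated again from their central nervous system (CNS). The disease was experimental autoimmune encephalomyelitis (EAE), used as a model for multiple sclerosis. The immunised group held CNS CD4+ T cells of C57BL/6 mice in which EAE had been induced with MOG35-55 peptide, also at peak. The immunised and transfer groups thus differ in strain label, and with it the transgenic receptor, and in host and way of induction together. Ages, the number of mice per array, and how pure the isolated cells were are not given in the labels.

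TGF-beta is secreted in a latent form and, once released, binds TGFBR2, which recruits and activates TGFBR1. The active receptor phosphorylates SMAD2 and SMAD3, which join SMAD4 and enter the nucleus, while SMAD7 blocks the receptor and SKI represses SMAD target genes. In CD4+ T cells TGF-beta supports regulatory T cells when alone and Th17 cells together with IL-6, and it restrains effector cells. Macrophages, microglia and other cells also make and answer to it.

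RefSeq promoter entries (GRCm38.p6) were found for 7 of the 10 genes, with 8 entries in all because Tgfbr1 has entries at different starts. Tgfb3, Tgfbr3 and Smad7 are named only. The 250 bases before the start are printed for Tgfbi, the member with the largest change. They are also printed for Tgfb2, the member not detected in 3 of the 4 groups. Capitals mark CAGAC, the short SMAD-binding element, on either strand, where the opposite strand reads GTCTG. The Tgfbi entry is chr13:56609336-56609585, plus strand, and the Tgfb2 entry is chr1:186705990-186706239, minus strand. Both are written 5′ to 3′ along the gene.
Tgfbi: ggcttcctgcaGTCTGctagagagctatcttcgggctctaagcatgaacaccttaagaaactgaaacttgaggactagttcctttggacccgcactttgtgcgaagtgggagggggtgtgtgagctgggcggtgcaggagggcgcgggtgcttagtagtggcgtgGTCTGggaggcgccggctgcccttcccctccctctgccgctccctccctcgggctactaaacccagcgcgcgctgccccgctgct
Tgfb2: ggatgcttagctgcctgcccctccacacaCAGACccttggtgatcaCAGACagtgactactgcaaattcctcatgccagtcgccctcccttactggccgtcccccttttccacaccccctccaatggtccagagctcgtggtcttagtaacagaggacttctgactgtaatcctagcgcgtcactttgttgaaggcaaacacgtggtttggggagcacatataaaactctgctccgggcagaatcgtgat
Tgfbi held 2 matches, beginning 239 and 85 bases before the start. Tgfb2 held 2 as well, at 221 and 204 bases. The Tgfbr2 entry held 1 match and 1 of the Tgfbr1 entries held 1, while those of Tgfb1, Smad3 and Ski and the other Tgfbr1 entry held none. A match lay in 42.2% of 32851 promoters of this length. None of the 8 entries held the palindrome GTCTAGAC, found in 0.167% of promoters, or the AP-1 motif TGANTCA, found in 6.75%, both strands searched and CAGAC not overlapping either.

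Levels below are given as log2 signal minus the 75th percentile of log2 signals on that array, so that 0 is a bright probe. They are compared between groups for 1 probe but never between genes. Changes are differences of these log2 levels with the standard error (SE) of the limma fit, and a change was called at a Benjamini-Hochberg adjusted p under 0.05 over all 18630 genes. In RNA of bulk samples, fewer cells of a type and less RNA per cell cannot be told apart. On each array, 57.1% to 64.9% of the spots other than controls exceeded background clearly. T cell markers were bright in every group: all 13 of 13 were well above background on each array, with a mean log2 level of 4.13 to 5.37.

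**Figure D1:**
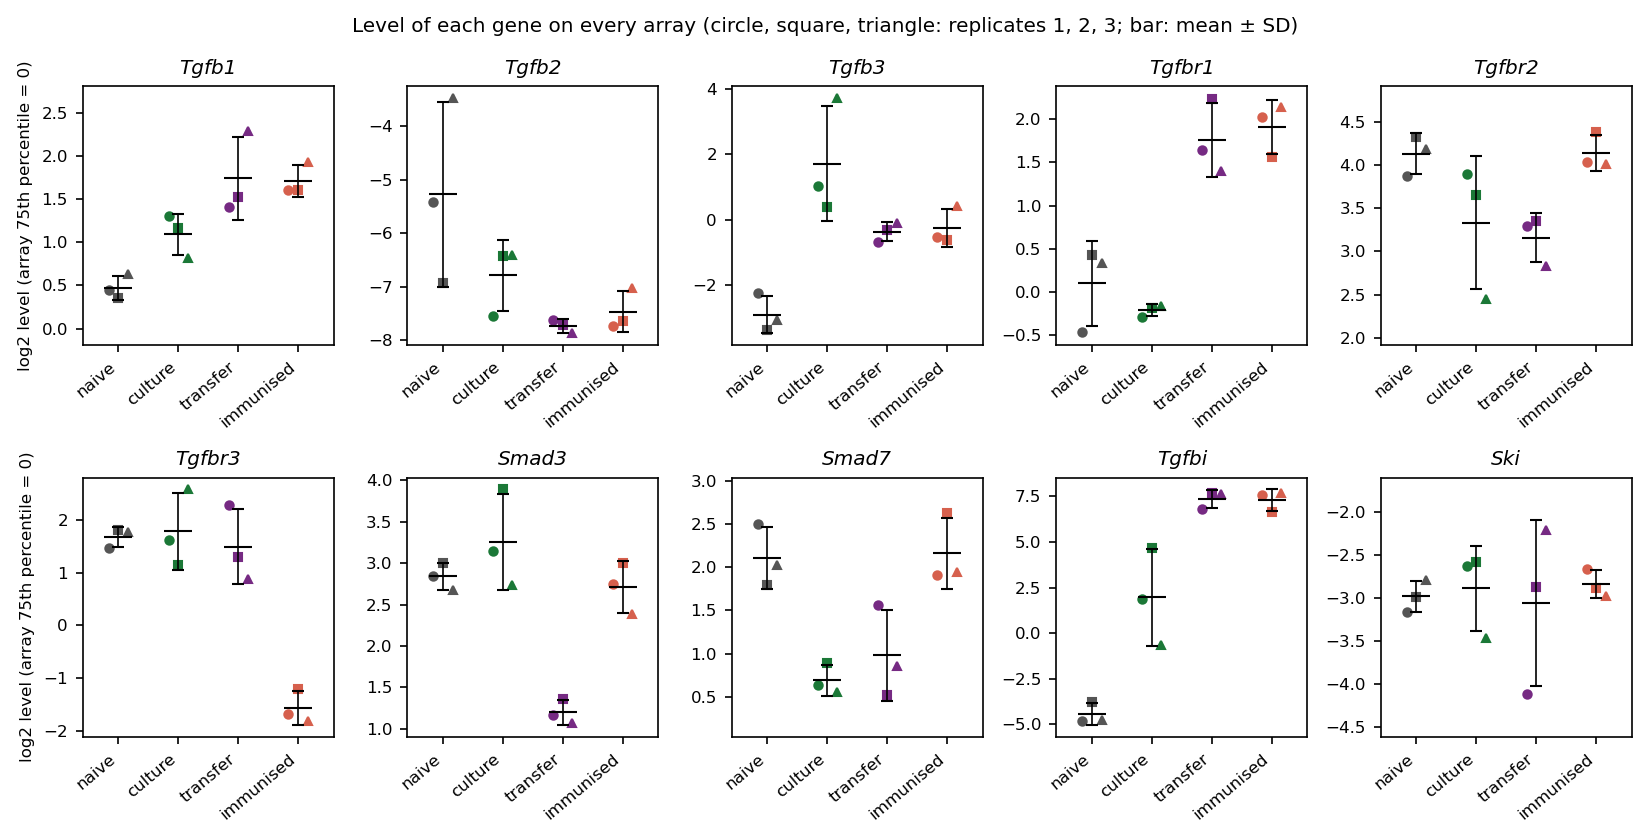
Log2 level (vertical axis, array 75th percentile at 0, each panel with its own scale) of the 10 genes on every array, by group; symbols are replicates and bars are mean ± SD of 3 arrays. Tgfbi covers the widest range, from −4.79 on a naive array to 7.68 on the brightest CNS arrays, Tgfbr3 is low in the immunised group and Smad3 in the transfer group.

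Tgfbi, which encodes a secreted matrix protein named for its induction by TGF-beta, changed most among these genes. Its log2 level on the 3 naive arrays was −4.79, −3.75 and −4.74, and in culture it was 1.90, 4.68 and −0.64. In the transfer group it was 6.81, 7.68 and 7.61, and in the immunised group 7.60, 6.62 and 7.68. Naive arrays were lowest, culture arrays spread widely between, and both CNS groups were high and overlapped each other. The rise from naive to culture was 6.41 ± 1.02 (SE; limma adjusted p = 0.000663), the further rise to transfer was 5.38 ± 1.02 (limma adjusted p = 0.00319), and the CNS groups differed by −0.07, with a 95% interval of −2.32 to 2.18. Against naive cells Tgfbi was 11.80 ± 1.02 higher in transfer and 11.73 ± 1.02 higher in immunised cells (limma adjusted p = 1.04e-05 and 1.06e-05). Against culture it was 5.32 ± 1.02 higher in immunised cells (limma adjusted p = 0.00295).

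The culture arrays set much of the size of the Tgfbi steps. Without culture replicate 3 the rise from naive to culture was 7.72 and that from culture to transfer 4.07, and without culture replicate 2 they were 5.06 and 6.73. The immunised against culture difference was then 4.0 and 6.67. All of these stayed past the threshold. The probe lies at chr13:56740460-56740519 in mm9, on the plus strand.

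**Figure D2:**
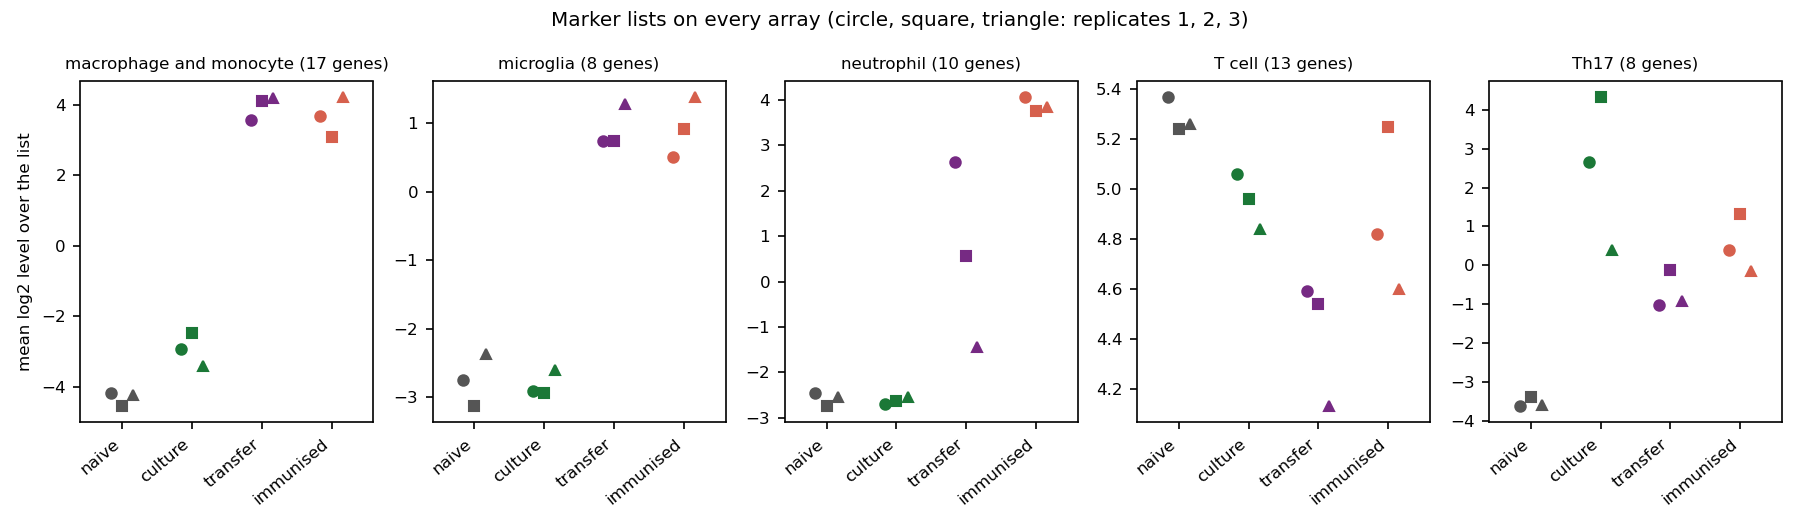
Mean log2 level (vertical axis, separate scale per panel) of 5 marker lists on every array, by group, with replicates as symbols. The macrophage and monocyte list lies between −4.55 and −2.48 in naive and culture cells and between 3.09 and 4.23 in both CNS groups, and the neutrophil list is high in all 3 immunised arrays but spreads from −1.43 to 2.62 in the transfer arrays.

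Markers of macrophages and monocytes moved with Tgfbi. Of 17 such genes on the array, between 8 and 9 were well above background on naive arrays, 11 to 14 on culture arrays, and 16 or 17 on CNS arrays. Their summed level, as a multiple of the 75th percentile signal, was 24.6 to 98.2 in naive, 20.9 to 33.5 in culture, 638 to 969 in transfer and 500 to 1030 in immunised samples. C1qc, which encodes a complement chain made by macrophages, was not well above background on any naive or culture array and stood at a mean log2 level of 5.86 in transfer and 5.02 in immunised cells. Cd163, a scavenger receptor of macrophages, was well above background on 1 CNS array, a transfer array. In transfer against culture, 15 of 16 tested macrophage and monocyte genes and 7 of 8 microglia genes were called higher, beside 12.8% of all genes. In immunised against culture the counts were 15 of 16 and 7 of 8, beside 13.7%. The part of these cells in the Tgfbi result was not tested.

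On the 3 culture arrays the macrophage and monocyte list had a mean log2 level of −2.94, −2.48 and −3.40, far below the CNS arrays but above all naive arrays (−4.55 to −4.17). Its summed linear level overlapped between culture (20.9 to 33.5) and naive arrays (24.6 to 98.2). That sum rests mostly on Itgam, the brightest gene of the list in both groups, with mean log2 levels of 5.54 in naive and 4.23 in culture cells. From naive to culture 8 of the 16 tested genes of the list were called higher and 2 lower, beside 19.7% and 20.3% of all genes. Their median change was 1.51 beside −0.08 for all genes, and their part in the rise of Tgfbi in culture was not tested. The Th17 list (8 genes, among them Il17a and Il17f) had mean log2 levels of 2.66, 4.33 and 0.39 on culture replicates 1, 2 and 3. By mean log2 level both lists, like Tgfbi, were highest on culture replicate 2 and lowest on culture replicate 3, but by summed level the macrophage list was lowest on replicate 1. With 3 arrays no relation can be tested.

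The genes whose level followed that of Tgfbi most closely over the 12 arrays, among 11992 ranked, were Fes, Csf2rb and Ccl3, with Pearson r of 0.992, 0.989 and 0.988. Fes encodes a tyrosine kinase, Csf2rb the shared signalling chain of the receptors for GM-CSF, IL-3 and IL-5, and Ccl3 a chemokine. The arrays share groups, so r describes their pattern only. Ccl3, for example, rose from a mean log2 level of −4.44 in naive to 4.38 in transfer and 4.80 in immunised cells.

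Among the ligands, Tgfb1 was measured in all groups and was higher in both CNS groups than in naive splenic cells. Tgfb1 encodes the main TGF-beta of immune cells. Its log2 levels were 0.45, 0.35 and 0.63 on naive, 1.30, 1.16 and 0.82 on culture, 1.41, 1.52 and 2.29 on transfer and 1.61, 1.60 and 1.93 on immunised arrays. The naive arrays lay below all others, culture arrays lay between, and transfer and immunised arrays overlapped. Against naive, Tgfb1 was higher by 1.27 ± 0.24 in transfer cells (limma adjusted p = 0.0016) and by 1.24 ± 0.24 in immunised cells (limma adjusted p = 0.00183), about 2.41-fold and 2.37-fold. The neighbouring steps, 0.62 ± 0.24 from naive to culture (limma adjusted p = 0.0617) and 0.64 ± 0.24 from culture to transfer (limma adjusted p = 0.0689), did not pass. The first passed under 3 of 24 alternatives: without transfer replicate 3 (limma adjusted p = 0.0211), without culture replicate 3 (0.0408) and with a trended robust prior (0.0493), in a range of 0.0211 to 0.17. The second passed under 1, without transfer replicate 1 (limma adjusted p = 0.0453, range 0.0453 to 0.23). The CNS groups differed by −0.02, with a 95% interval of −0.56 to 0.51. The marker changes given above for the CNS samples apply to Tgfb1 too, which macrophages also express, and their part was not tested. The probe lies at chr7:26489877-26489936 in mm9.

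Tgfb3, a TGF-beta that Th17 cells themselves can make, followed another order, with culture highest. Its log2 levels were −2.25, −3.36 and −3.07 on naive, 1.04, 0.39 and 3.73 on culture, −0.68, −0.31 and −0.11 on transfer and −0.52, −0.62 and 0.43 on immunised arrays. Culture replicate 3 stood far above the other culture arrays, and naive arrays were below all others. Tgfb3 rose by 4.62 ± 0.71 from naive to culture (limma adjusted p = 0.000563), by 3.30, 3.75 and 6.80 within the 3 slides. It was higher than naive by 2.53 ± 0.71 in transfer cells (limma adjusted p = 0.0137) and by 2.66 ± 0.71 in immunised cells (limma adjusted p = 0.0108).

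From culture to the CNS, Tgfb3 differed by −2.09 ± 0.71 in transfer (limma adjusted p = 0.0508) and by −1.95 ± 0.71 in immunised cells (limma adjusted p = 0.06), so neither passed the threshold. The first of these sat at the edge: it passed under 9 of 24 alternatives, with adjusted p from 0.0173 to 0.133. Culture replicate 3 set the sizes. Without it the naive to culture rise was 3.61 and the culture to transfer difference −1.08, and without culture replicate 2 they were 5.28 and −2.75. Without culture replicate 3 and without culture replicate 2 the immunised against culture difference was −0.95 and −2.62, the second with a limma adjusted p of 0.0189 in a range of 0.0189 to 0.151. On culture replicate 3, where Tgfb3 was highest, Tgfbi and the Th17 list were at their lowest for the group. The probe lies at chr12:87397804-87397863 in mm9, on the minus strand.

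The 3 genes closest in pattern to Tgfb3 over the 12 arrays were Xpnpep1 (r of 0.987), which encodes an aminopeptidase, 3000002C10Rik (0.985) and Mvb12a (0.985), which encodes a subunit of the ESCRT-I sorting complex. All 3 were lowest in naive and highest in culture cells, as Tgfb3 was.

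Tgfb2 was at the limit of detection. Its brighter probe gave log2 levels of −5.41, −6.93 and −3.47 on naive arrays and between −7.87 and −6.40 on the other 9. It was well above background on naive replicate 3 alone, and so was the second probe. No test was made, and its other 11 values are bounds, since signals well above background reached down only to −5.95 to −5.17 depending on the array. The brighter probe lies at chr1:188449333-188449392 in mm9, on the minus strand.

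**Figure D3:**
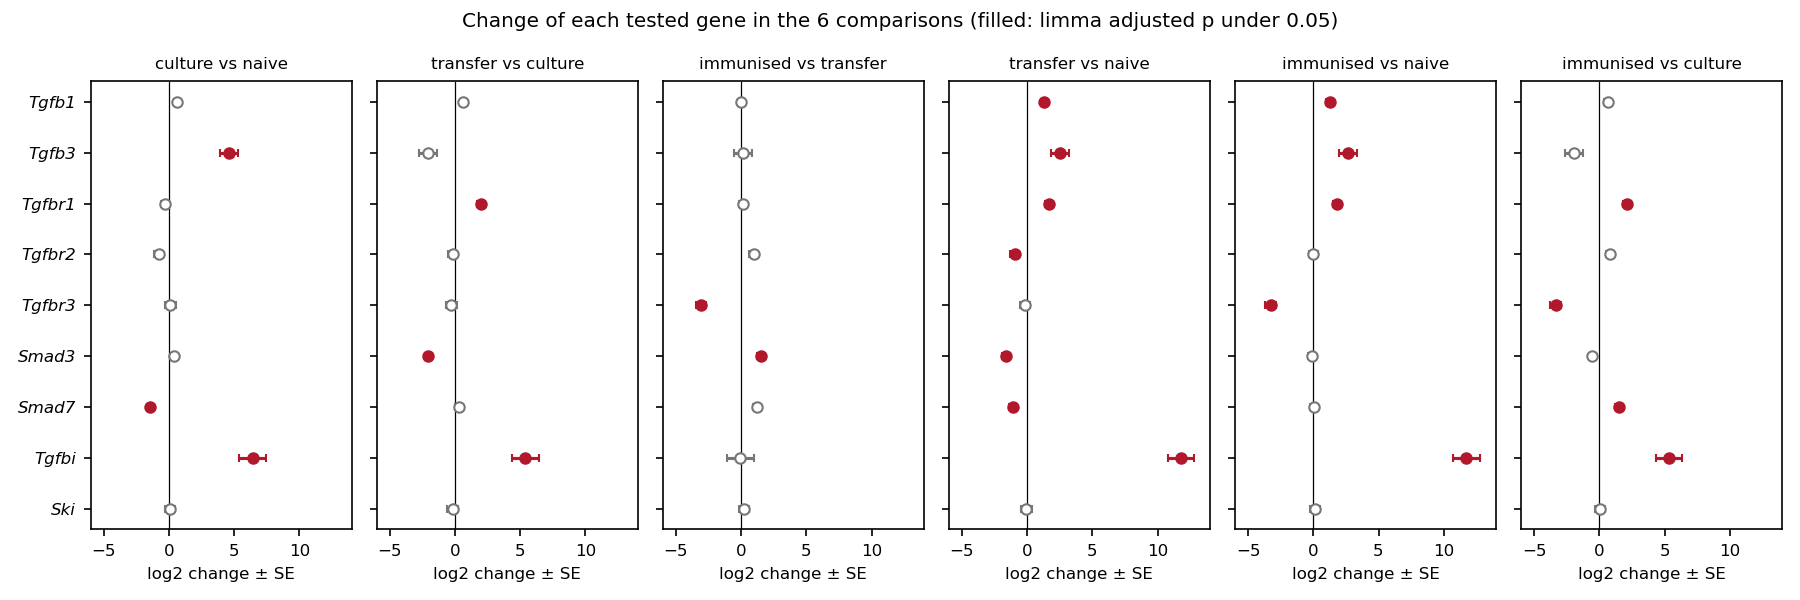
Log2 change ± SE (horizontal axis) of the 9 tested genes in the 6 comparisons, filled where the limma adjusted p was under 0.05. Tgfbr3 is lower in all 3 comparisons of the immunised group, Tgfbr1 is higher in both CNS groups against naive and culture, and Ski stays near 0 throughout.

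Among the receptors, Tgfbr1, the type I receptor kinase, was higher in both CNS groups by the probe used here. By its brightest probe the log2 levels were −0.47, 0.43 and 0.33 on naive, −0.29, −0.19 and −0.16 on culture, 1.64, 2.24 and 1.40 on transfer and 2.03, 1.56 and 2.14 on immunised arrays. The CNS arrays were above all others, and naive and culture arrays overlapped, as did transfer and immunised arrays. From culture to transfer it rose by 1.97 ± 0.28 (limma adjusted p = 0.000652), a 3.92-fold change, and against culture it was 2.12 ± 0.28 higher in immunised cells (limma adjusted p = 0.000351). Against naive the rise was 1.66 ± 0.28 in transfer and 1.81 ± 0.28 in immunised cells (limma adjusted p = 0.000846 and 0.000511). Culture and naive differed by −0.31, with a 95% interval of −0.94 to 0.32.

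The other 3 probes of Tgfbr1 were dim, and 2 of them were not well above background on every array. When each probe was tested on its own, a choice made after the data were seen, the second probe of the same transcript (A_55_P2137211) rose by 2.12 from culture to transfer and was 1.66 higher in immunised than in culture cells (limma adjusted p = 0.000981 and 0.00346). Another (A_55_P1960901), well above background on 2 of 3 culture arrays, rose by 2.30 and was 1.53 higher (limma adjusted p = 0.000199 and 0.00214). The remaining one (A_55_P1960906) was well above background on 2 naive and 3 transfer arrays and on 0 culture and 0 immunised arrays, so it gives only bounds in these comparisons. It did not pass in either. In immunised against naive cells it was called lower, again as a bound (−1.84, limma adjusted p = 0.00907). There A_55_P1960901 did not pass (0.52, limma adjusted p = 0.145) and A_55_P2137211 was higher (1.54, limma adjusted p = 0.00301). In transfer against naive cells A_55_P1960906 differed by −0.06 without passing (limma adjusted p = 0.928), and A_55_P1960901 and A_55_P2137211 were higher by 1.28 and 2.0 (limma adjusted p = 0.00326 and 0.000628). With the mean of all probes in place of the brightest, immunised against naive no longer passed, at 0.51 (limma adjusted p = 0.0781, in a range of 0.000309 to 0.0781 over 24 alternatives), and the difference of culture from naive then passed at −0.72 (limma adjusted p = 0.0241, in a range of 0.0241 to 0.75). The brightest probe lies at chr4:47427736-47427795 in mm9, on the plus strand.

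**Figure D4:**
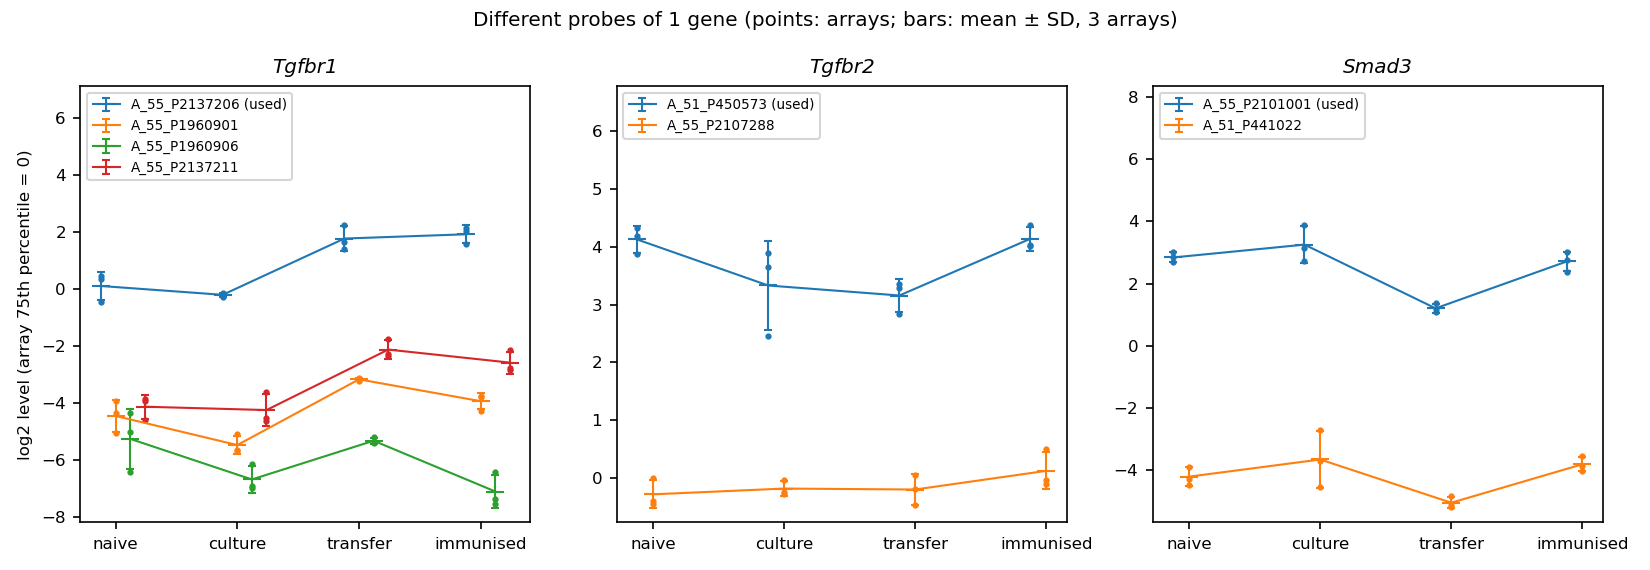
Log2 level (vertical axis, array 75th percentile at 0) of every probe of Tgfbr1, Tgfbr2 and Smad3 by group; points are arrays and bars are mean ± SD of 3 arrays. For Tgfbr1, 3 of 4 probes rise from culture to transfer past the threshold, the second Tgfbr2 probe is flat, and both Smad3 probes are lowest in transfer cells.

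Over the 12 arrays the genes most like Tgfbr1 were Man2b1 (r of 0.980), a lysosomal mannosidase, Tlr13 (0.976), a receptor for bacterial ribosomal RNA in myeloid cells, and F13a1 (0.973), a coagulation factor subunit made by macrophages. Tlr13 had mean log2 levels of −1.88 in naive and −1.72 in culture against 2.88 in transfer and 3.24 in immunised cells. The macrophage and microglia lists given above rose in the same comparisons, and their part in the Tgfbr1 result was not tested.

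Tgfbr2, the type II receptor that binds the ligand, was bright in every group, and its group means spanned 0.98 in log2. Its log2 levels were 3.87, 4.33 and 4.18 on naive, 3.89, 3.65 and 2.45 on culture, 3.29, 3.35 and 2.83 on transfer and 4.03, 4.38 and 4.01 on immunised arrays. Transfer arrays were below naive and immunised arrays, and culture arrays overlapped transfer and naive arrays. Tgfbr2 was lower in transfer than in naive cells by 0.97 ± 0.34 in log2 (−0.97, limma adjusted p = 0.0344). That call was fragile, since 7 alternatives at the same threshold lost it, 5 of them by leaving out 1 array, with adjusted p from 0.00253 to 0.116. Lost calls came without naive replicate 2 (−0.87), naive replicate 3 (−0.94) and transfer replicates 1 (−1.04), 2 (−1.07) and 3 (−0.81). Culture and naive cells differed by −0.80 ± 0.34 without passing (limma adjusted p = 0.0818). That difference passed with quantile normalization (−1.06, limma adjusted p = 0.0468), with the deposited matrix (−1.06, 0.0467) and without culture replicate 1 (−1.08, 0.0327), in a range of 0.0327 to 0.222. The second probe, A_55_P2107288, differed by 0.08 ± 0.21 in transfer against naive (limma adjusted p = 0.772) and passed in none of the 6. Immunised and transfer cells differed by 0.98 ± 0.34 without passing (limma adjusted p = 0.137), and without culture replicate 3, which changes only the shared spread, the same difference had an adjusted p of 0.0213 in a range of 0.0213 to 0.362. Immunised and naive cells differed by 0.01, with a 95% interval of −0.73 to 0.75. The brighter probe lies at chr9:115997155-115997214 in mm9, on the minus strand.

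Tgfbr3, or betaglycan, a coreceptor without kinase activity that presents ligand to TGFBR2, separated the CNS groups from each other. Its log2 levels were 1.47, 1.81 and 1.77 on naive, 1.63, 1.15 and 2.59 on culture, 2.29, 1.31 and 0.89 on transfer and −1.68, −1.21 and −1.82 on immunised arrays. All 3 immunised arrays were far below the 9 others, which overlapped one another. Against transfer cells Tgfbr3 fell by 3.07 ± 0.41 in log2, or 8.41-fold (limma adjusted p = 0.00291). It was lower than in naive cells (−3.26 ± 0.41, limma adjusted p = 0.000125) and than in culture cells (−3.36 ± 0.41, limma adjusted p = 0.000189). Within the 3 slides the immunised against transfer difference was −3.98, −2.52 and −2.72. The 24 alternatives gave −3.38 to −2.68 for that comparison and kept the call. Among the groups of B6.2d2 cells, transfer differed from culture by −0.29, with a 95% interval of −1.19 to 0.61, and culture from naive by 0.11, with an interval of −0.79 to 1.01.

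The immunised group alone holds cells of mice labelled C57BL/6, while the others are labelled B6.2d2 and carry the transgenic receptor. Strain label, receptor, host and induction cannot be told apart in the Tgfbr3 difference. A probe lying over a base that differs between the mice was not analysed here. The single probe lies at chr5:107535818-107535877 in mm9, on the minus strand. Neutrophil markers differed between the CNS groups as well. On transfer arrays 9 to 10 of the 10 were well above background and on immunised arrays all 10, with a summed level of 96.5 to 260 and of 547 to 685. The sum in naive cells, 110 to 226, overlapped that in transfer cells. Csf3r was the brightest gene of the list in both, with mean log2 levels of 7.11 in naive and 6.32 in transfer cells. Of the neutrophil markers, 5 of 10 were called higher in immunised cells, beside 1.85% of all genes. Regulatory T cell markers had mean log2 levels of −0.45, −0.18 and 0.28 in transfer and 1.34, 2.08 and 1.67 in immunised cells. Their summed level overlapped, at 44.45 to 53.99 in transfer and 49.63 to 72.45 in immunised cells. Of these markers 2 of 8 were called higher in immunised cells and 0 lower. The part of the neutrophil and regulatory T cell markers in the Tgfbr3 result was not tested. The genes closest to Tgfbr3 in pattern were Zmym4 (r of 0.975), a zinc finger protein, Med19 (0.949), a subunit of the Mediator complex, and Catsper2 (0.937), a sperm calcium channel subunit, each lowest in immunised cells.

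Smad3, which carries the signal from the receptor to the nucleus, was low in transfer cells only among these 4 groups. The log2 levels of Smad3 were 2.84, 3.0 and 2.68 on naive, 3.14, 3.89 and 2.73 on culture, 1.17, 1.36 and 1.07 on transfer and 2.75, 3.0 and 2.38 on immunised arrays. Every transfer array lay below every array of the other groups, and those overlapped. Smad3 fell by 2.05 ± 0.28 in log2 from culture to transfer, a 4.14-fold change (limma adjusted p = 0.000424), and was lower in transfer than in naive cells (−1.64 ± 0.28, limma adjusted p = 0.000769). It was 1.51 ± 0.28 higher in immunised than in transfer cells (limma adjusted p = 0.0173). That last call was lost without transfer replicate 3 (1.44, limma adjusted p = 0.0671), without immunised replicate 1 (1.49, 0.0762) and without immunised replicate 2 (1.36, 0.0761), the adjusted p ranging from 0.00469 to 0.0762. Immunised and naive cells differed by −0.13, with a 95% interval of −0.74 to 0.48.

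The second Smad3 probe, A_51_P441022, was dimmer and was also lowest in transfer cells, but it passed in fewer comparisons. Tested on its own it fell from culture to transfer by 1.39 ± 0.38 in log2 (limma adjusted p = 0.0201). Transfer against naive, at −0.84 ± 0.38, did not pass (limma adjusted p = 0.0919), and neither did immunised against transfer, at 1.24 ± 0.38 (limma adjusted p = 0.104). The brighter probe lies at chr9:63494574-63494633 in mm9, on the minus strand. T cell markers were lower in transfer cells too. Against culture 4 of 13 were called lower, beside 15.5% of all genes, and 0 higher. Their median change was −0.62 beside −2.05 for Smad3, and their summed level was 353 to 471 in transfer against 667 to 776 in culture. Against naive, 8 of 13 were called lower in transfer cells, beside 26.5% of all genes, and 0 higher. The median change was −1.01 beside −1.64 for Smad3. In immunised against naive cells 5 of 13 were called lower, beside 27.7% of all genes, and 0 higher. That median change was −0.67 beside −0.13 for Smad3, and the summed level in immunised cells was 424 to 636. In immunised against transfer cells 1 of 13 T cell markers was called higher, beside 1.85% of all genes, and 0 lower. The median change of the markers was 0.20 beside −0.04 for all genes. The part of the T cell markers in the Smad3 result was not tested. The genes most like Smad3 were Galnt12 (r of 0.947), a glycosyltransferase, Evpl (0.941), a junction protein, and Fbxo25 (0.940), an F-box protein.

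Smad7, the inhibitor that TGF-beta signalling itself induces, was lower in culture and transfer cells than in the others. The log2 levels of Smad7 were 2.50, 1.79 and 2.03 on naive, 0.64, 0.89 and 0.55 on culture, 1.56, 0.52 and 0.86 on transfer and 1.91, 2.63 and 1.94 on immunised arrays. Culture and transfer arrays overlapped and lay below naive and immunised arrays, which overlapped each other. Smad7 fell by 1.42 ± 0.30 in log2 from naive to culture, or 2.67-fold (limma adjusted p = 0.00395), and was lower in transfer than in naive cells (−1.13 ± 0.30, limma adjusted p = 0.0107). It was 1.47 ± 0.30 higher in immunised than in culture cells (limma adjusted p = 0.00448). The difference between immunised and transfer cells, 1.18 ± 0.30, did not pass (limma adjusted p = 0.0653). It passed with normexp background correction (limma adjusted p = 0.0444) and without transfer replicate 1 (limma adjusted p = 0.0275), in a range of 0.0275 to 0.21. Immunised and naive cells differed by 0.05, with a 95% interval of −0.62 to 0.72.

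Ski, the corepressor that binds SMAD complexes, was dim and passed in none of the 6 limma comparisons, with 0 also at an unadjusted p under 0.05. The log2 levels of Ski were −3.16, −2.99 and −2.79 on naive, −2.63, −2.58 and −3.46 on culture, −4.11, −2.87 and −2.21 on transfer and −2.67, −2.88 and −2.98 on immunised arrays. The groups overlapped in every comparison. Its 6 differences lay between −0.17 and 0.22, each with an SE of 0.41, and the highest upper bound of their 95% intervals was 1.13 in log2. The probe lies at chr4:154528238-154528297 in mm9, on the minus strand.

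The number of these genes that changed can be set beside all genes tested. From naive to culture 3 of 9 were called (Tgfb3 and Tgfbi higher, Smad7 lower), beside 40.1% of all genes. From culture to transfer 3 of 9 were called (Tgfbr1 and Tgfbi higher, Smad3 lower), beside 28.3%. Neither share stood far from its background. Between the CNS groups 2 of 9 were called (Smad3 higher and Tgfbr3 lower in immunised cells), beside 3.22%. Transfer against naive called 7 of 9 beside 47.7%, with Tgfb1, Tgfb3, Tgfbr1 and Tgfbi higher and Tgfbr2, Smad3 and Smad7 lower. Immunised against naive called 5 of 9 beside 48.3%, with Tgfb1, Tgfb3, Tgfbr1 and Tgfbi higher and Tgfbr3 lower. Immunised against culture called 4 of 9 beside 31.5%, with Tgfbr1, Smad7 and Tgfbi higher and Tgfbr3 lower. These comparisons share groups and are not independent of one another.

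Each of these 24 differences had the same direction within all 3 slides, which are the arrays that made the calls. Every group had the same place on each slide, so group and place on the slide cannot be told apart. The median change of the 9 genes was 0.11 beside −0.08 for all genes from naive to culture, −0.17 beside −0.10 from culture to transfer and 0.15 beside −0.04 between the CNS groups. It was −0.08 beside −0.12 in transfer against naive, 0.13 beside −0.19 in immunised against naive and 0.62 beside −0.17 in immunised against culture.

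**Figure D5:**
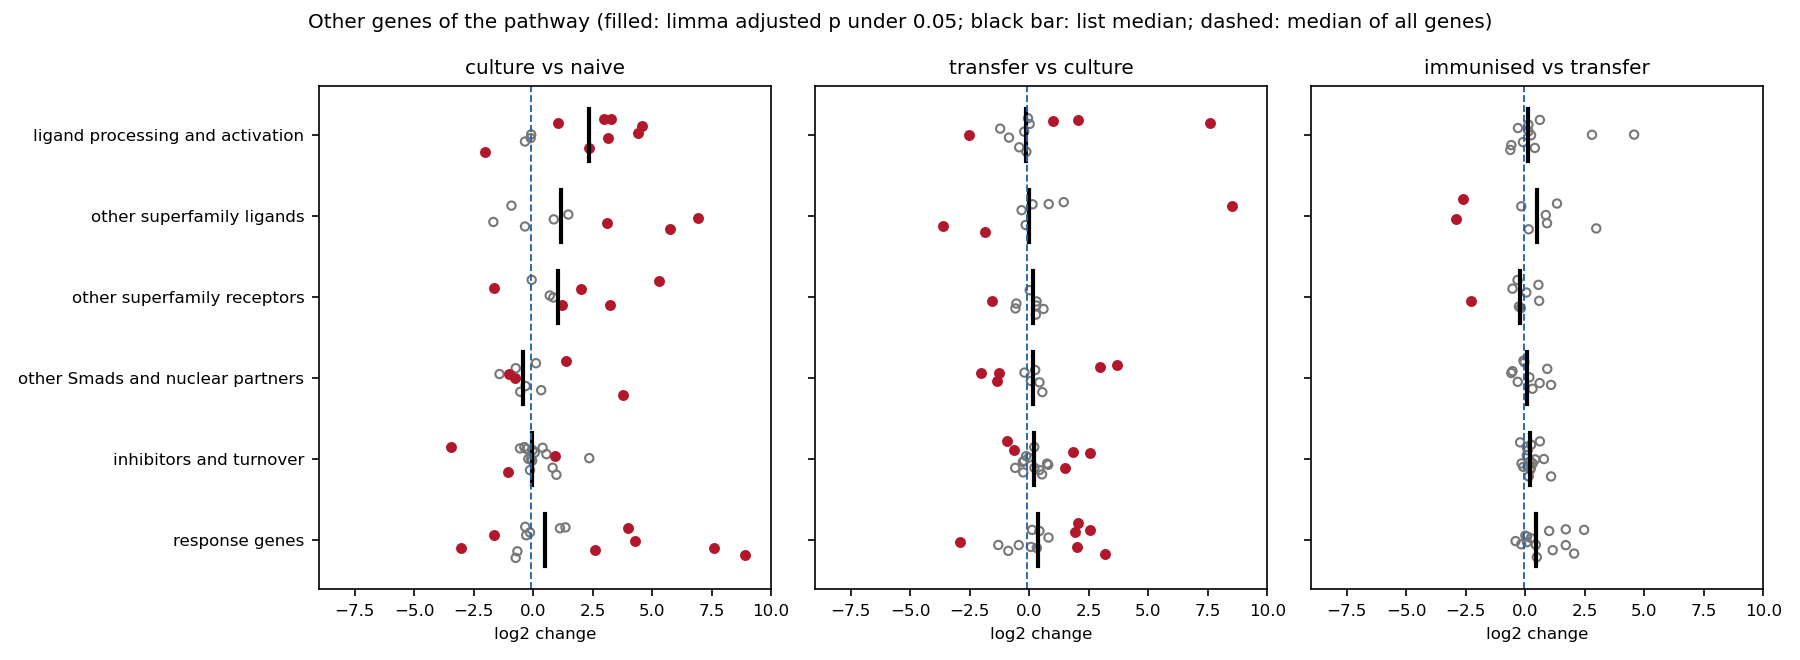
Log2 change (horizontal axis) of each tested gene of 6 further pathway lists in 3 comparisons, filled where the limma adjusted p was under 0.05; the black bar is the list median and the dashed line the median of all genes. Ligand processing genes lie to the right from naive to culture, with a median of 2.33, while between the CNS groups 3 genes in all are filled.

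Other genes of the pathway were counted in 6 lists. For reading these counts, 19.7% of all genes were called higher and 20.3% lower from naive to culture, 12.8% higher and 15.5% lower from culture to transfer, and 1.85% higher and 1.37% lower in immunised against transfer cells. Among genes of ligand processing and activation, 7 of 11 were called higher and 1 lower from naive to culture, with a median change of 2.33 beside −0.08 for all genes. Lrrc32, which encodes GARP, the surface anchor of latent TGF-beta on regulatory T cells, rose by 3.28 ± 0.81 (limma adjusted p = 0.00859), and Thbs1, a matrix protein that can release active TGF-beta, was at least 5.19-fold higher, from not well above background on any naive array (limma adjusted p = 0.000227). The lower one was Nrros, which anchors latent TGF-beta on myeloid cells (−2.0 ± 0.29, limma adjusted p = 0.000361). From culture to transfer 3 of 11 were called higher and 1 lower. Thbs1 rose by 7.60 ± 0.61 (limma adjusted p = 2.02e-05) and Nrros by 2.05 ± 0.29 (limma adjusted p = 0.000579). Myeloid cells express both genes, and the macrophage list was high in the transfer samples as well. The macrophage list was low in naive cells. Nrros in transfer cells differed from naive by 0.04 (limma adjusted p = 0.915). In immunised cells Nrros differed from naive by 0.17 (limma adjusted p = 0.647). The part of myeloid cells in these results was not tested. Between the CNS groups limma called 0 of 11, with 3 at an unadjusted p under 0.05. Against naive, 5 of 11 were called higher in transfer and 6 of 11 in immunised cells, beside 21.2% and 20.6% of all genes. Among them was Furin, the protease that cuts the TGF-beta precursor, at 2.92 ± 0.61 in transfer (limma adjusted p = 0.00282).

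Of the other ligands of the superfamily, 3 of 8 were called higher from naive to culture and 0 lower. Inhba, the activin A subunit, rose by 5.77 ± 0.68 (limma adjusted p = 0.000101), and Inha, the inhibin alpha subunit, was at least 26.3-fold higher (limma adjusted p = 1.86e-06). From culture to transfer Inha fell by 3.62 ± 0.44 in log2 (limma adjusted p = 0.000208) and Gdf15, a stress-induced member of the family, rose by 8.51 ± 0.57 (limma adjusted p = 7.66e-06). In immunised against transfer cells 2 of 8 were lower: Gdf15 (−2.63 ± 0.57, limma adjusted p = 0.0368) and Inha, at least 2.06-fold (limma adjusted p = 0.00613). Gdf15 had log2 levels of 3.37, 3.96 and 4.60 on transfer and 0.39, 1.39 and 2.25 on immunised arrays, which did not overlap.

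Of the other receptors, 4 of 8 were called higher and 1 lower from naive to culture. Bmpr1a, a type I receptor for bone morphogenetic proteins, was at least 34.4-fold higher (limma adjusted p = 6.92e-07), while Acvr1b, the activin type I receptor, was lower (−1.65 ± 0.19, limma adjusted p = 9.60e-05). Bmpr1a was the only receptor of the list called from culture to transfer (−1.56 ± 0.28, limma adjusted p = 0.00246) and between the CNS groups (−2.30 ± 0.28 in immunised against transfer, limma adjusted p = 0.00209). Like Tgfbr3 it was thus lower in immunised than in transfer cells.

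Of the other SMADs and nuclear partners, 2 of 10 were called higher and 2 lower from naive to culture. Smad4, the common partner of the signalling SMADs, fell by 1.01 ± 0.19 in log2 (limma adjusted p = 0.0017) and was also lower than naive in transfer (−1.21 ± 0.19) and immunised cells (−0.91 ± 0.19; limma adjusted p = 0.000452 and 0.0026). In transfer against culture 2 of 10 were higher and 3 lower, among them Zeb1 (−2.01 ± 0.28, limma adjusted p = 0.000535) and Zeb2 (2.99 ± 0.46, limma adjusted p = 0.000961), related repressors that bind SMADs. Zeb2 is also expressed by myeloid cells. Between the CNS groups limma called 0 of 10, with 1 at an unadjusted p under 0.05.

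Among inhibitors and turnover genes, 1 of 17 was called higher and 2 lower from naive to culture, and the largest change was in Nedd4l, a ubiquitin ligase for SMADs (−3.44 ± 0.50, limma adjusted p = 0.000363). In transfer against culture 3 of 17 were higher and 2 lower. Both Tgif1 and Skil, corepressors of SMAD target genes and Skil the relative of Ski, rose, by 2.57 ± 0.29 and 1.83 ± 0.18 (limma adjusted p = 0.000138 and 7.21e-05). Skil had log2 levels of 0.72, 0.71 and 0.82 on culture and 2.51, 2.31 and 2.90 on transfer arrays, and it was 2.03 ± 0.18 higher in immunised than in culture cells (limma adjusted p = 3.05e-05). Between the CNS groups limma called 0 of 17, with 1 at an unadjusted p under 0.05.

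Among response genes known from other cells, 5 of 14 were called higher and 2 lower from naive to culture, with a median change of 0.50 beside −0.08. Cdkn1a, a cell cycle inhibitor, was higher (8.92 ± 0.43, limma adjusted p = 4.49e-07), but it was well above background on 1 of 3 naive arrays, so the size of that difference is uncertain. Id3, a helix-loop-helix inhibitor, fell by 3.04 ± 0.48 in log2 (limma adjusted p = 0.000609). In transfer against culture 5 of 14 were higher and 1 lower, and Id1, a relative of Id3, rose by 3.19 ± 0.52 (limma adjusted p = 0.00143). Between the CNS groups limma called 0 of 14, with 4 at an unadjusted p under 0.05. Many of these genes answer to other signals, and macrophages express several of them, so their part was not tested either.

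Over the 6 lists the immunised against transfer comparison called 3 genes, all lower in immunised cells, that is 3 of 68 beside 3.22% of all genes. From naive to culture 30 of 68 were called beside 40.1%, and from culture to transfer 24 of 68 beside 28.3%. In transfer against naive 31 of 68 were called beside 47.7%, in immunised against naive 41 of 68 beside 48.3%, and in immunised against culture 22 of 68 beside 31.5%.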

How the data were processed

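Intensity values per spot come from the scanner software Agilent Feature Extraction 10.7.3.1, per the file headers, with background subtraction within each array and no scaling between arrays. The deposited series matrix holds a further set of intensity values whose normalization is not given in the sources used here, and it served as an alternative. RNA was extracted with NucleoSpin RNA II, per the labels' protocols. Probe positions are in mm9, per the file headers, and whether a probe lies in coding sequence or an untranslated region was not analysed here.

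Control spots and spots marked as outliers were left out and repeated spots averaged. Values are log2 of the processed signal minus the 75th percentile of the array over non-control probes. Genes that exceeded background clearly in every array of 1 or more groups were fitted over all 12 arrays with limma 3.58.1 in R 4.3.3 (8 residual and 2.485 prior degrees of freedom), with two-sided tests adjusted by Benjamini-Hochberg over 18630 genes. Intervals are at 95%. Where a gene was not well above background on any array of a group, the fold is a bound, with that group raised to the lowest signal well above background on each array. The fit was tested on simulated data.

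Alternatives were median scaling, quantile normalization, normexp background (offset 50), the deposited matrix, other filters, the mean of all probes, a replicate block, only the 6 arrays compared, a trended robust prior, a threshold of 0.01 and leaving out each array. Scaling to the percentile over spots, and the fit of 24333 probes 1 by 1, were added after the data were seen. The members and lists were chosen with earlier results of these data known. Named genes were all members, up to 3 per list and direction that were called with groups not overlapping, and, for members well above background on all 12 arrays whose group means spanned 2 or more, the 3 genes with the highest Pearson r. Not every gene meeting these criteria is reported here. The genes ranked by r were limited, after values were seen, to genes named through RefSeq. Of 18 macrophage and monocyte markers, Ly6c2 was not matched to a probe. Figures used Python 3.11.15 with matplotlib 3.10.9.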

Additional observations from a re-analysis of the deposited data

How the results depend on the processing

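Of 54 results of single genes (9 genes in 6 comparisons), 37 kept their side of the threshold under all 24 alternatives, and no called change reversed. The sign changed in 44 of 1296 values, all of them called under neither setting. Calls of Tgfbr2, Smad3 and Tgfbr1 lost at the same threshold, and differences that passed under some settings, stand beside their values, except these in immunised against culture. Tgfb1 (0.62, limma adjusted p = 0.0736) passed without transfer replicate 3 (0.0271, range 0.0271 to 0.212). Tgfbr2 (0.81, limma adjusted p = 0.0917) passed without culture replicate 1 (1.09, 0.0386, range 0.0386 to 0.246). Smad3 (−0.54, limma adjusted p = 0.156) passed without culture replicate 3 (−0.80, 0.0393, range 0.0393 to 0.465). The cause was not tested.

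With an adjusted p under 0.01 the members called were 1 for immunised against transfer and 4 for transfer against naive. Over all genes that threshold gave 4709 for culture against naive (7463 at 0.05), 2687 for transfer against culture (5267), 185 for immunised against transfer (600) and 3278 for immunised against culture (5861). With only the 6 arrays compared, so that fewer arrays estimate the spread, 3313 genes were called for transfer against culture. The reason for the lower count was not tested. For immunised against transfer, 371 genes were called with no filter on dim probes and 367 with probes well above background on all 12 arrays. Leaving out 1 array gave 1 to 3 members and 193 to 1294 genes there: 1294 without culture replicate 3, 342 and 271 without transfer replicates 2 and 3, and 193, 220 and 365 without immunised replicates 1, 2 and 3. Median scaling moved the median change of all genes from −0.08 to 0.03 for culture against naive and from −0.10 to −0.21 for transfer against culture, and reversed no member's call.

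Replicate numbers mark the slide, yet same-numbered arrays did not deviate together: their correlations ran from −0.198 to 0.204, and 4 of 18 exceeded 0.1. In 13 of 36 cases an array correlated best with its own number in another group. With the replicate block, which leaves the differences as they were, Tgfb3 passed for transfer against culture (limma adjusted p = 0.0368, range over the alternatives 0.0173 to 0.133) and for immunised against culture (0.0433, range 0.0189 to 0.151). Called members were then 4 and 5, and 557 genes were called between the CNS groups.

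Arrays give no read depth. Precision was limited by 3 arrays per group, and the lowest log2 signal among probes well above background was −5.95 to −5.17 by array. Lower levels are bounds. Tgfb2 was well above background on 1 of 12 arrays and the dimmest Tgfbr1 probe on 0 of 3 culture and 0 of 3 immunised arrays.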
